A study of Mus musculus with 12 samples.

Results

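The response to crowding was compared between 2 lines of mouse embryonic fibroblasts, 1 that lacks FAK, the focal adhesion kinase encoded by Ptk2, and 1 to which FAK was given back. For each gene the quantity described is a difference of differences: the change from sparse to dense culture in the knockout (KO) line minus the same change in the rescue line. All 12 of the 12 arrays of the series enter it. The KO line carries a knockout of FAK, and the rescue line is clone DA2, 1 clone of FAK-null cells that express FAK again, so that what is particular to this clone and what FAK does cannot be told apart. Each line was seeded at 410000 cells (sparse) or 8200000 cells (dense) in a 10 cm dish and harvested 24 h later. Both lines grew in DMEM with Glutamax and 10% serum. The rescue line alone also received 135 µg/ml of hygromycin B and non-essential amino acids, at both densities. The 4 groups (rescue sparse, rescue dense, KO sparse, KO dense) were each cultured on 3 experimental days, giving 3 arrays a group.

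FAK is a tyrosine kinase that is recruited to integrins where cells hold on to the matrix, and it passes signals on to Src, Ras and PI3 kinase. Normal fibroblasts that become crowded leave the cell cycle, a behaviour called contact inhibition. Their MYC, E2F and amino acid supply genes then fall, and genes of quiescence, lysosomes and matrix rise, in part through FOXO factors that act when growth factor signalling is low. The question the difference addresses is which parts of this program differ when FAK is missing.

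A level is given here as log2 of the background-subtracted signal of a probe minus the 75th percentile of its array, so 0 is the level that 75 percent of probes do not reach. Changes are dense minus sparse in log2 units with the standard error (SE) of a limma fit over 12435 genes, and a change or difference was called when its Benjamini-Hochberg adjusted p was under 0.05. A positive difference means that the KO line changed more upwards, or less downwards, than the rescue line. All p-values measure the spread between cultures of different days.

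Several features of the arrays bear on all values. The 12 arrays lay on 5 slides. Both densities of a line and day were always on the same slide, so each day's change is a difference within a slide, whereas the lines shared a slide on day 2 only. Levels of the lines are therefore confounded with slide and medium. The difference of differences is not confounded with slide, but it is with medium, since the additions to the medium were given to the rescue line alone. The spike-in RNA added in equal amount was, relative to the 75th percentile, 2.80 to 4.18 log2 units bright in KO sparse, 0.33 to 0.71 in KO dense, 1.67 to 2.32 in rescue sparse and 0.86 to 1.71 in rescue dense arrays. Scaling to the spike-in RNA moves the median difference of all genes from 0.04 to 2.39, so every statement below is relative to the bulk of the probes. It moves the median change of the KO line from -0.0029 to 3.07 and that of the rescue line from -0.08 to 0.64, so the changes within a line shift as well. With it 12373 genes rose and 2 fell in KO cells, and of the 21 genes named below with a called KO fall 19 had a KO change above 0. Where it turns a difference or a list's median, or ends the call of a difference, the value is given with the gene or in the closing section; its effect on each single change is not repeated. Ptk2 itself was at 0.08, 0.38 and 0.48 in rescue sparse, 0.39, 0.34 and 0.34 in rescue dense, 0.18, 0.07 and 0.36 in KO sparse and 0.50, 0.33 and 0.03 in KO dense arrays. The ranges of this probe, the brighter of 2 kept for Ptk2, overlapped between the lines. The other probe fell by 1.38 in rescue cells and changed by -0.24 in KO cells (difference 1.15, not called). Since the positions of the probes in the gene are not given here, they do not check the labels. Of 12 fibroblast markers 11 were well above background on all 3 arrays of each group. Their summed linear signals were 1080 to 1938 times the 75th percentile in rescue arrays and 345 to 376 times in KO arrays. Of 11 mesothelial markers, 4 were in each rescue group and all 11 in each KO group (counted as above), with summed linear signals of 25.1 to 46.0 times the 75th percentile in rescue arrays and 191 to 227 times in KO arrays; their part in the differences was not tested.

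The deposited value table of the same arrays went against the scanner files on day 3. Over 19463 probes, with each probe centred on its mean over arrays, the 8 columns of days 1 and 2 correlated with their own arrays at 0.902 to 0.979. Each of the 4 columns of day 3 correlated at 0.917 to 0.965 with the array of the other line at the same density, and at -0.347 to -0.586 with its own. Among the scanner files, all 12 arrays were closest to another array of their own labelled group. Scanner files as labelled were used for all results, whereas the table gave 0 called differences with its day 3 columns and 1353 without them.

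The promoters of 5 genes at the top of the groups described below are printed first, because these groups share short motifs. They come from RefSeq on GRCm38.p6, run 5′ to 3′ on the gene's strand across the start of transcription, and carry the searched letters in capitals. The motifs were TTTNNCGC (E2F), TTTGAA (the cell cycle homology region, CHR), CCAAT (the box read by NF-Y), GAAA followed by any 2 bases and GAAA again (the interferon-stimulated response element, ISRE) and TGATGNAA (the amino acid response element), each searched on both strands. Cdk1 (chr10:69352863-69353162, minus strand) and Ube2c (chr2:164769679-164769978, plus strand) stand for mitosis, Cdc6 (chr11:98907901-98908200, plus strand) for DNA replication, Ifit1 (chr19:34640639-34640938, plus strand) for the interferon response, and Slc7a11 (chr3:50443564-50443863, minus strand) for amino acid supply. Capitals mark E2F, CHR and CCAAT letters in Cdk1, CHR and CCAAT letters in Ube2c, E2F letters in Cdc6, ISRE letters in Ifit1 and amino acid response letters in Slc7a11. In Ube2c 2 CCAAT boxes on opposite strands overlap. These promoters were chosen because they hold the letters.
Cdk1: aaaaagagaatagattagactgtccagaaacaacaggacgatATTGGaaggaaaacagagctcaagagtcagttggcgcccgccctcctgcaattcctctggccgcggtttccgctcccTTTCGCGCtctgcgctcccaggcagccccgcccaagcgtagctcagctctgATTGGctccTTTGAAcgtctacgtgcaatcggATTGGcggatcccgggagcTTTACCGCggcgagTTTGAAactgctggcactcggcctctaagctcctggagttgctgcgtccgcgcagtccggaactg
Ube2c: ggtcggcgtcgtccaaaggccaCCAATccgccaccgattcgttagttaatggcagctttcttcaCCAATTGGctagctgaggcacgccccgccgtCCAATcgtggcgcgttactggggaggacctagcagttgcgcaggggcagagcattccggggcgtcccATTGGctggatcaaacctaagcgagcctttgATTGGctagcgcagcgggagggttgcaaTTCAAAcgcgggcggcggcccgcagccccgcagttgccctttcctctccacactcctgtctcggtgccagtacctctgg
Cdc6: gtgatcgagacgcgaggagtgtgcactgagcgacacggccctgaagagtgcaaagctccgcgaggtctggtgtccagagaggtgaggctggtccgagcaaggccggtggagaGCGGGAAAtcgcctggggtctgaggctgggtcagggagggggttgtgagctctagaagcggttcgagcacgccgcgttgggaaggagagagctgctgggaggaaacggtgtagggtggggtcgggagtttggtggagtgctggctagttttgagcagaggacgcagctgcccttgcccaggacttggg
Ifit1: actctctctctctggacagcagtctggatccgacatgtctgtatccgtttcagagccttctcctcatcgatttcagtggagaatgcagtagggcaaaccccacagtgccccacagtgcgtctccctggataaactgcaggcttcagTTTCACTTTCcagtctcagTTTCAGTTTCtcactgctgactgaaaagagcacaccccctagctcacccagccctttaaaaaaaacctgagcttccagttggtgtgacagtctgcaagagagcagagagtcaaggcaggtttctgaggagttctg
Slc7a11: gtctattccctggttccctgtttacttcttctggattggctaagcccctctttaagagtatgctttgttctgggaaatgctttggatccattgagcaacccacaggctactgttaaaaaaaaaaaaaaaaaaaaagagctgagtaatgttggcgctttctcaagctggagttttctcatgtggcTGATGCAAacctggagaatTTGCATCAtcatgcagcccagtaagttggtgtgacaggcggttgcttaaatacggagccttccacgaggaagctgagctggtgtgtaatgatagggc

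In the promoters of all genes tested (12761 promoters of 9936 genes), CCAAT letters were found in 37.9%, CHR letters in 12.2%, E2F letters in 7.84%, ISRE letters in 2.99% and amino acid response letters in 2.26%. In those of genes that fell in dense rescue cells and lost this fall in KO cells, CHR letters were found in 17.9% and E2F letters in 13.5% of 1113 promoters. The mitosis genes held CHR letters in 76.5% and CCAAT letters in 73.5% of 34 promoters, the replication genes E2F letters in 40% of 40, the interferon genes ISRE letters in 52% of 25 and the amino acid genes response element letters in 28.9% of 38. These are counts of letters and not of bound sites. A missing match says only that the letters are not in the window.

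The density responses of the lines differed in 2579 of 12435 genes, 20.7% of those tested. The KO change was the higher in 1402 genes (11.3%) and the lower in 1177 (9.47%), so that 54.4% of the calls were higher. This share was 45.8% with the 75th percentile taken over the probes above background on all arrays, 70.9% with arrays scaled to their median and 99.5% with spike-in scaling. The difference was at least 2-fold in 2212 of the 2579. Its median SE over all genes was 0.35 log2 units. The sign was the same on all 3 days in 2569 of the called genes, against 57.4% of all genes tested. On day 2, when all 4 cultures were on 1 slide, it was that of the fit in 2571 of the 2572 called genes with a value. In 2565 of the called genes the 3 daily changes of the lines did not overlap, against 43.5% of all genes tested. The calls were made from these same days, so these counts describe the called genes and test nothing. Normexp background correction, which compresses dim signals, left 592 called genes. It ended the call of 31 of the 100 genes named below, among them these with a group not well above background: Slc7a11 (difference 0.42), Id4 (0.85), Cobl (1.2), Fst (0.79), Ifit1 (-1.11), Parp14 (-1.75), Trim63 (-1.02), Lum (-1.62), Mmp3 (-2.06) and Mmp13 (-1.84). Leaving out day 1, 2 or 3 left 1200, 920 and 1214.

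With arrays scaled to the 75th percentile, more genes changed in the rescue than in the KO line. The rescue line changed with density in 4977 genes (40%), 2366 upwards (19%) and 2611 downwards (21%), and the KO line in 1356 (10.9%), 676 upwards (5.44%) and 680 downwards (5.47%). A gene is called lost here when the rescue line changed, the KO line did not, and the lines differed. It is called gained in the opposite case, reversed when both changed in opposite directions, and weakened or strengthened when both changed in 1 direction by sizes that differed. It is called kept when both changed in 1 direction, no difference was called, and the 95% interval of the difference lay within a factor of 2. Lost were 1943 genes (15.6%), gained 248 (1.99%), reversed 118 (0.949%), weakened 93 (0.748%), strengthened 4 (0.0322%) and kept 232 (1.87%). These classes rest on the scaling: with spike-in scaling 10 genes were lost, 8685 gained and 0 kept. They also depend on the probe. For 26 of the 100 genes named below 33 further probes were kept, of which 13 gave the class of the probe shown. The 25 further probes of genes with a called difference all had its sign, and 17 of them were called. A further 2277 genes changed in rescue cells alone without a called difference, 367 in KO cells alone and 294 in both, so for these the data do not say whether the response was kept.

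**Figure D1:**
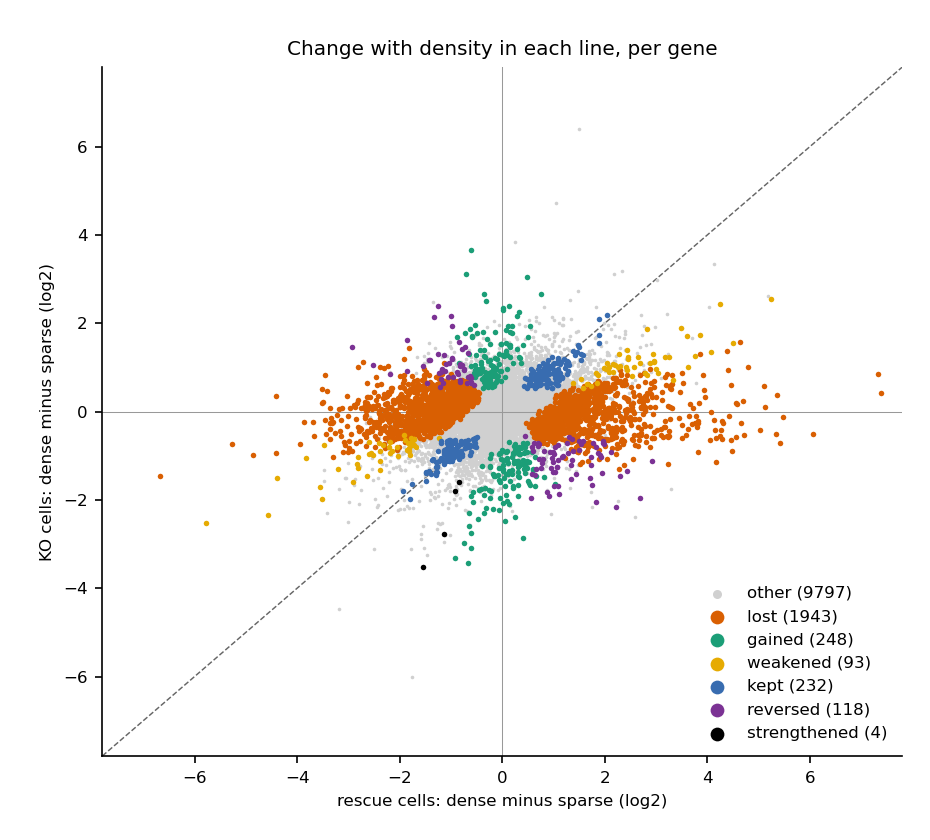
Change with density (dense minus sparse, log2) of each of 12435 genes in rescue cells (horizontal) and KO cells (vertical), coloured by class with the number of genes in the legend; the dashed line marks equal change. The 1943 lost genes lie along the horizontal axis, the 248 gained genes along the vertical axis, and the 232 kept genes along the dashed line.

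Among lost genes the KO change was centred near 0. Among the 1089 (8.76% of all genes) that fell in dense rescue cells, the median change was -1.36 in rescue and 0.07 in KO cells, and among the 854 (6.87%) that rose it was 1.52 and -0.11. Values of KO change within 0.5 log2 units of 0 were found in 907 of the 1089 and 634 of the 854. The rule for lost genes favours such values, so these medians describe the class and test nothing. The mean KO level of the genes that fell was beyond the rescue sparse level in 55.4%, nearer to the sparse than to the dense level in 24.2%, nearer to the dense level in 10% and beyond it in 10.4%. For the genes that rose these shares were 55.5%, 18.9%, 12.2% and 13.5%. In 152 of the 854 genes that rose and 36 of the 1089 that fell, the probe was well above background on none of the 6 KO arrays. These positions compare levels across lines, and so carry the slide and medium as well.

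Of the 24 lists described, the 2 of the cell cycle held the most lost falls. Of 39 tested genes of DNA replication and S phase, 38 fell in dense rescue cells and none changed in KO cells, against 21% and 10.9% of all genes. In 32 of the 39 the difference was called, each with the KO change higher, against 11.3% of all genes. The list's median change was -1.91 in rescue and -0.04 in KO cells, where the medians of all genes were -0.08 and -0.0029. Of 39 genes of mitosis and the kinetochore, all 39 fell in rescue cells and 1 in KO cells, against 21% and 5.47% of all genes. Of the 39, 33 differed, again with the KO change higher. Their medians were -2.01 in rescue and 0.05 in KO cells. In 30 of the 32 lost replication genes and all 33 lost mitosis genes the mean KO level was on the sparse side of the midpoint of the rescue levels.

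Cdk1 is the kinase that drives entry into mitosis, and its promoter, printed above, holds 2 CHR and 2 E2F matches. It was at 4.0, 3.99 and 4.81 in rescue sparse and 1.88, 1.18 and 1.87 in rescue dense cells, and at 3.36, 3.39 and 3.32 in KO sparse and 3.47, 3.68 and 3.93 in KO dense cells. The rescue groups do not overlap, and all 6 KO values lie between them. The fall was 6.16-fold in rescue cells, and the difference between the lines was 2.96 ± 0.37 (adjusted p = 0.00038, limma). Cdc6, which loads the replicative helicase on origins, was at 1.01, 1.14 and 1.05 in rescue sparse and -2.05, -2.97 and -2.04 in rescue dense cells. In KO cells it was at 1.00, 0.93 and 1.1 when sparse and 1.28, 1.5 and 1.67 when dense. Its difference of 3.89 ± 0.33 was the largest among lost falls measured on all 12 arrays. Further differences were 3.62 ± 0.34 for Mybl2 and 3.37 ± 0.50 for E2f8, both transcription factors of the cell cycle, 2.73 ± 0.35 for Ube2c, which marks mitotic proteins for destruction, and 2.63 ± 0.49 for Kif23, a motor of cytokinesis.

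The inhibitors of the cycle were less uniform. Of 25 tested CDK inhibitors and p53 targets, 7 differed with the KO change lower and 4 with it higher, 44% against 20.7% of all genes. The median difference was -0.13, which turned to 0.12 with median scaling and 2.22 with spike-in scaling. Cdkn2a, whose products p16 and ARF restrain CDK4 and MDM2, was at 2.15, 2.44 and 2.01 in rescue sparse and 3.27, 3.83 and 3.45 in rescue dense cells, and between 1.94 and 2.51 on all 6 KO arrays. Its difference was -1.42 ± 0.29. Cdkn2b (p15) had a difference of -1.24 ± 0.30. Cdkn1b (p27), a CDK inhibitor of quiescent cells, was reversed: it was at -1.69, -1.84 and -1.61 in rescue sparse, -0.98, -0.76 and -1.30 in rescue dense, 0.29, 0.13 and 0.51 in KO sparse and -0.12, -0.55 and -0.50 in KO dense cells. All KO values of Cdkn1b were above all rescue values, and the direction with density differed as well (-1.40 ± 0.27). On its second probe neither the changes (0.48 in rescue and -0.78 in KO cells) nor the difference (-1.26) were called. Normexp correction ended the call of the probe shown (-1.08). Leaving out day 1, 2 or 3 ended the call of Cdkn2a (-1.569, -1.348 and -1.329) and that of Cdkn2b (-0.993, -1.293 and -1.422). The difference of Cdkn2b was also not called after normexp correction (-1.27) or with median scaling (-0.99). That of Cdkn1b was not called without day 2 (-1.225). These 3 inhibitors lie outside the rule for named genes and were chosen after their values were seen, and with spike-in scaling their differences turn positive (0.93, 1.11 and 0.94). Rbl1 (p107), which binds E2F factors, fell 2.3-fold in rescue cells and rose 1.87-fold in KO cells.

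Amino acid supply, ribosome production and protein folding followed. Of 39 tested ATF4 and amino acid genes 23 differed with the KO change higher and 1, Nupr1, with it lower (-0.94 ± 0.23, or 1.41 with spike-in scaling), and the median difference was 1.23. The background for these lists is 11.3% of all genes with the KO change higher and 9.47% with it lower. Of 31 genes of ribosome biogenesis 16 differed, each with the KO change higher, and the median was 0.92. In this list the KO line changed as well, with 4 called falls, against 5.47% of all genes. The median change was -0.49 in KO and -1.40 in rescue cells, and 3 of the 16 were weakened rather than lost. Of 21 genes of the unfolded protein response 7 differed upwards, with a median of 0.71. Called in either direction were 61.5% of the ATF4 list, 51.6% of the ribosome list and 33.3% of this list, against 20.7% of all genes.

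Slc7a5, a subunit of the transporter of large neutral amino acids, was at 1.23, 1.26 and 0.51 in rescue sparse and -1.42, -2.38 and -1.64 in rescue dense cells. In KO cells it was at 0.97, 1.73 and 1.09 when sparse and 1.24, 1.58 and 1.77 when dense. The rescue dense values lie below all others, and the difference was 3.08 ± 0.44 (adjusted p = 0.00073, limma). Slc7a11, the cystine transporter, whose promoter above holds 2 facing response element matches, fell at least 8.88-fold in rescue cells, where no dense array was well above background, and its KO change was -0.19 ± 0.46. Asns, which makes asparagine, differed by 1.71 ± 0.45 and was named after its values were seen. Gar1, a protein of the particles that modify ribosomal RNA, went from 1.91, 2.24 and 2.45 to 0.55, 0.67 and 0.41 in rescue cells and from 1.66, 2.46 and 2.31 to 2.52, 2.77 and 2.84 in KO cells. Npm3, a histone chaperone of the nucleolus, and Ddx21, a nucleolar RNA helicase, differed by 1.93 ± 0.26 and 1.77 ± 0.27. On the further probes of Ddx21 KO falls were called as well (-1.32 and -1.63). Their differences were 0.90, which was not called, and 1.09, which was. Sdf2l1 and Manf, both proteins of the endoplasmic reticulum, differed by 2.63 ± 0.35 and 2.30 ± 0.36.

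**Figure D2:**
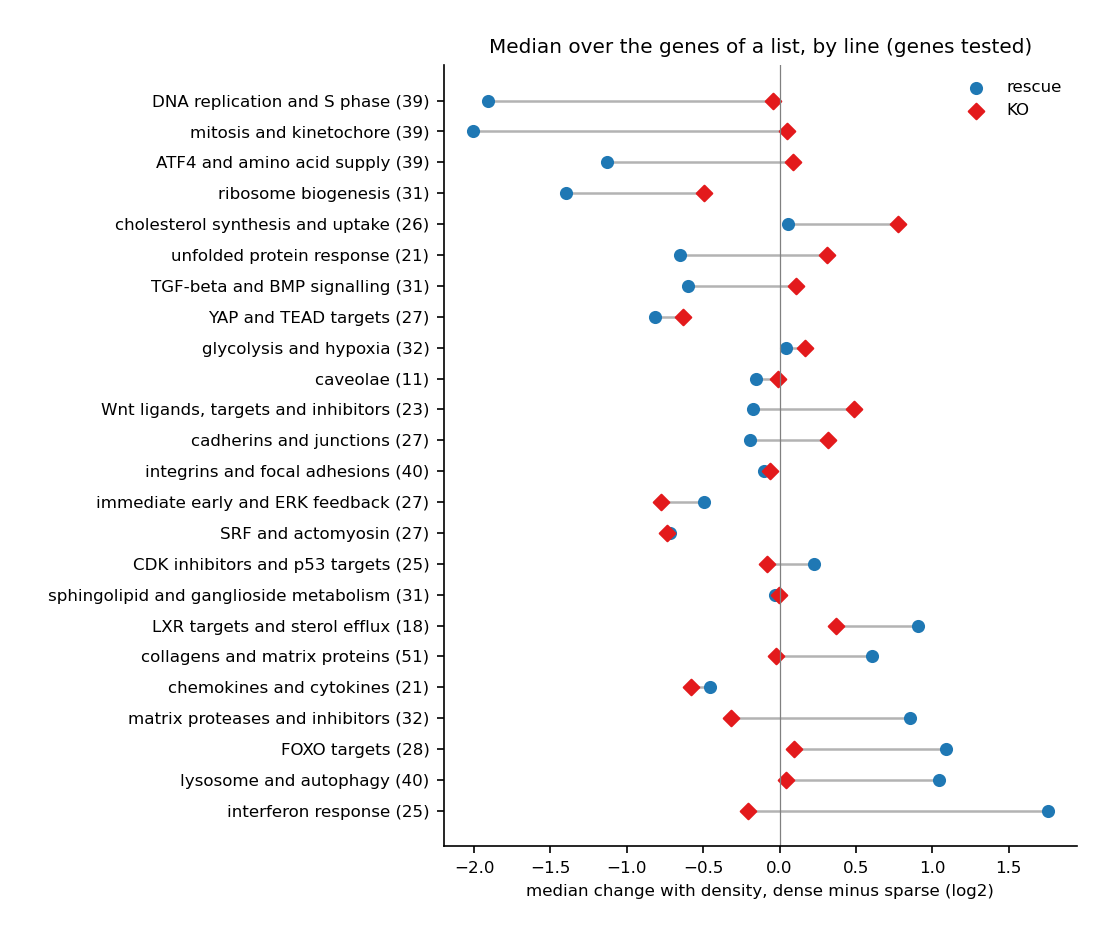
Median change with density (log2) over the tested genes of 24 lists, in rescue cells (circles) and KO cells (diamonds), with the number of genes tested in parentheses and lists ordered by their median difference. The replication and mitosis lists have medians of -1.91 and -2.01 in rescue cells and near 0 in KO cells, and the interferon list 1.76 in rescue and -0.20 in KO cells. The interferon medians include 7 genes that passed the filter on dim probes through the rescue dense group alone.

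Of 31 tested genes of TGF-beta and BMP signalling, 13 differed with the KO change higher (11.3% of all genes) and 2 with it lower (9.47%), and 16 were not called. The median difference was 0.56, or 0.31 after normexp correction. The ID proteins are inhibitors of differentiation factors and direct targets of BMP signals, and all 4 of their genes were lost falls. Id1 was at 3.75, 3.46 and 3.04 in rescue sparse and 1.14, 0.79 and 1.5 in rescue dense cells, and between 3.51 and 4.51 on the 6 KO arrays, so the rescue dense values are apart from the rest. The differences were 2.65 ± 0.42 for Id1, 2.89 ± 0.42 for Id2 and 1.22 ± 0.30 for Id3. Id4 fell at least 4.59-fold in rescue cells, in which no dense array was well above background. Smad7, an inhibitor of the receptors, was lost with a difference of 2.05 ± 0.41.

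The ligand and 3 inhibitors of this pathway were reversed. Bmp4, the ligand, was at 2.52, 2.90 and 2.70 in rescue sparse and 1.46, 1.43 and 1.00 in rescue dense cells, but at 1.41, 1.76 and 1.72 in KO sparse and 2.62, 2.76 and 3.02 in KO dense cells. It thus fell 2.65-fold in rescue cells and rose 2.25-fold in KO cells (difference 2.57 ± 0.28, adjusted p = 0.00016, limma). Smad6, an inhibitory SMAD, had a difference of 2.42 ± 0.48, and Bambi, a decoy receptor, 1.24 ± 0.27. Fst (follistatin), which binds activin, fell at least 4.24-fold in rescue cells and rose by 1.45 ± 0.36 in KO cells. Of these, Id1 to Id3, Smad6, Smad7, Bambi and Bmp4 were named after their values were seen. A large difference of the list was in the opposite direction. Tgfbi, a secreted adhesion protein induced by TGF-beta, rose 34.7-fold in dense rescue cells, changed by 0.11 ± 0.42 in KO cells, and differed by -5.01 ± 0.59.

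Of 35 listed interferon genes 25 were tested. In dense rescue cells 20 of the 25 rose, against 19% of all genes, and in KO cells none, against 5.44%. In 15 the difference was called, all with the KO change lower, against 9.47% of all genes. Of the 25, 7 passed the filter on dim probes through the rescue dense group alone, Ifit1 and Parp14 among them, which fixes their direction. Neither the count nor the list's median is therefore read as a result about the list. Of the 14 with no undetected group 8 differed, again with the KO change lower. The median of -1.86 became -1.04 after normexp correction and turned to 0.49 with spike-in scaling. Oasl2, an interferon-induced relative of the antiviral oligoadenylate synthetases, was at -5.05, -5.13 and -6.20 in rescue sparse and -0.70, -1.06 and -0.45 in rescue dense cells. It was at -3.86, -3.58 and -3.39 in KO sparse and -4.04, -4.14 and -4.24 in KO dense cells, so that all KO values lay between the rescue groups. In rescue sparse cells it was well above background on 1 of 3 arrays. The rise was 26.4-fold in rescue cells and the difference -5.25 ± 0.41 (adjusted p = 3.1e-05, limma). Ifit1, which binds foreign RNA and whose promoter above holds 2 ISRE matches, rose at least 5.44-fold in rescue cells, and Parp14, an ADP-ribosyltransferase, at least 11.8-fold. In the other 3 groups no array had either of them well above background.

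Lysosome and FOXO target genes rose in dense rescue cells as well. Of 40 tested genes of lysosome and autophagy 29 rose in rescue cells and 1 in KO cells, against 19% and 5.44% of all genes. The difference was called in 18, each with the KO change lower, and the median of -0.95 became 1.45 with spike-in scaling. This is 45% of the list, against 9.47% of all genes with a lower KO change, and 2 members passed the filter through the rescue dense group alone. Lipa and Gaa, the lysosomal lipase and glucosidase, differed by -2.24 ± 0.33 and -1.97 ± 0.35, and their differences also turn positive with that scaling (0.11 and 0.38). Gpnmb, a glycoprotein of lysosomes and melanosomes, rose by 2.32 ± 0.23 in rescue cells and was well above background on none of the 6 KO arrays. Npc1, which exports cholesterol from lysosomes, was weakened, with rises of 1.85 ± 0.18 in rescue and 0.65 ± 0.18 in KO cells, and its difference of -1.19 ± 0.25 became 1.15 with spike-in scaling. It was named after its values were seen.

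Of 28 tested FOXO targets 19 rose in rescue and 3 in KO cells, against 19% and 5.44% of all genes. The KO change was lower in 11 (39.3%, against 9.47% of all genes) and higher in none. The list's median of -0.95 became 1.40 with spike-in scaling. Of the 28, 2 passed the filter through the rescue dense group alone, and of the 25 with no undetected group 10 differed, each with the KO change lower. Fbxo32 (atrogin-1), a ubiquitin ligase of FOXO programs, was at -2.48, -2.61 and -3.22 in rescue sparse and -0.14, 0.49 and 0.30 in rescue dense cells, and between -3.19 and -2.71 on all 6 KO arrays. Its difference was -2.88 ± 0.33, or -0.53 and not called with spike-in scaling. Trim63 (MuRF1), the other ubiquitin ligase of this kind, rose at least 4.79-fold in rescue cells. It was not well above background in any other group, so the filter fixed its direction. Pik3ip1, an inhibitor of PI3 kinase, differed by -3.02 ± 0.58. For Foxo3 itself, the factor, a difference was not called: it rose by 0.93 ± 0.27 in rescue cells, changed by -0.20 ± 0.27 in KO cells, and differed by -1.13 ± 0.39 (adjusted p = 0.0595, limma). Without the third rescue dense or the first KO dense array this difference was -1.38 or -1.37 and was called, as it was at -1.13 with the line and day pair as a random block and at -1.21 with the 75th percentile over probes above background on all arrays. Foxo3 was dim, well above background on 2 of 3 rescue sparse, 3 of 3 rescue dense, 0 of 3 KO sparse and 1 of 3 KO dense arrays.

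Abca1, which exports cholesterol and is a target of the sterol sensor LXR, had the largest difference of all genes named. It was at -7.24, -6.33 and -7.77 in rescue sparse cells, none of them well above background, and at -0.19, 0.89 and 0.12 in rescue dense cells. In KO cells it was at -0.13, -0.94 and -0.75 when sparse and at 0.07, -0.04 and -0.56 when dense. The rescue sparse group stands alone, and the other 3 groups overlap. Abca1 rose at least 75.9-fold in rescue cells and by 0.43 ± 0.38 in KO cells. The fitted difference was -6.96 ± 0.54, and -5.82 with the rescue sparse group at its bound. Of all 18 LXR targets tested, Abca1 included, 6 differed downwards and 2 upwards, with a median of -0.38, or 1.97 with spike-in scaling. That is 44.4% called, against 20.7% of all genes. Of the 18, 1 passed the filter on dim probes through the rescue dense group alone, which fixes its direction. Of the 16 with no undetected group 4 differed downwards and 2 upwards. Apoe, the apolipoprotein that takes up the exported lipid, went the other way. It fell 2.37-fold in rescue cells and rose 2.48-fold in KO cells.

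Secreted and matrix genes were among the largest lost rises measured on all 12 arrays. C3, the central complement protein, was at -3.0, -3.07 and -3.24 in rescue sparse and 0.98, 1.59 and 0.86 in rescue dense cells, and at 4.17, 4.60 and 4.50 in KO sparse and 3.72, 3.91 and 4.01 in KO dense cells. Dcn (decorin), a collagen-binding proteoglycan, was at 1.41, 1.55 and 0.75 in rescue sparse, 5.59, 6.24 and 5.53 in rescue dense, 5.80, 6.29 and 5.93 in KO sparse and 6.36, 6.00 and 6.25 in KO dense cells. Of 9 lost rises in the list of collagens and matrix proteins, the mean KO level was on the sparse side of the midpoint in 5. It was on the dense side in 4. C3 and Dcn differ from Oasl2 and Fbxo32 above in where the KO level lay. C3 was higher in all KO cultures than in dense rescue cells, and the KO values of Dcn overlapped those of dense rescue cells. Matn2 (matrilin-2), in contrast, rose by 3.69 ± 0.27 in rescue cells from 0.90 to 4.59, and had means of -4.12 and -4.40 in sparse and dense KO cells.

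The differences were -4.79 ± 0.30 for C3, -4.35 ± 0.37 for Dcn and -3.98 ± 0.38 for Matn2. A second probe of C3 differed by -2.51, with a called KO fall of 1.87 and a rescue change of 0.64 that was not called. Mme (neprilysin), a peptidase of the cell surface, differed by -5.38 ± 0.42, Mgp, an inhibitor of calcification, by -4.69 ± 0.47, and Slc40a1 (ferroportin), the iron exporter, by -4.41 ± 0.36. Over the list of collagens and matrix proteins, 11 of 51 differed downwards and 4 upwards (29.4% against 20.7% of all genes), with a median of -0.49 that became 1.86 with spike-in scaling. Of the 51, 2 passed the filter through the rescue dense group alone, and of the 43 with no undetected group 10 differed downwards and 3 upwards. Of 32 matrix proteases and inhibitors, 11 differed downwards and 3 upwards, 43.8% of the list against 20.7% of all genes (median -0.91, or 1.44 with spike-in scaling). Of the 32, 3 passed the filter through the rescue dense group alone and 1 through a KO group alone, which fixes their direction. Of the 25 with no undetected group 9 differed downwards and 2 upwards. Mmp3 and Mmp13, secreted proteases of matrix, rose at least 15.4-fold and 11.3-fold in rescue cells. Lum (lumican), a relative of decorin, rose at least 11-fold. None of the 3 was well above background in any other group, so the filter fixed their direction. Pdgfra, the receptor for PDGF and a fibroblast marker, rose 13.1-fold in rescue cells and changed by 0.09 ± 0.32 in KO cells, whereas its second probe rose by 2.05 in rescue cells and fell by 1.52 in KO cells, both called. It was named after its values were seen.

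**Figure D3:**
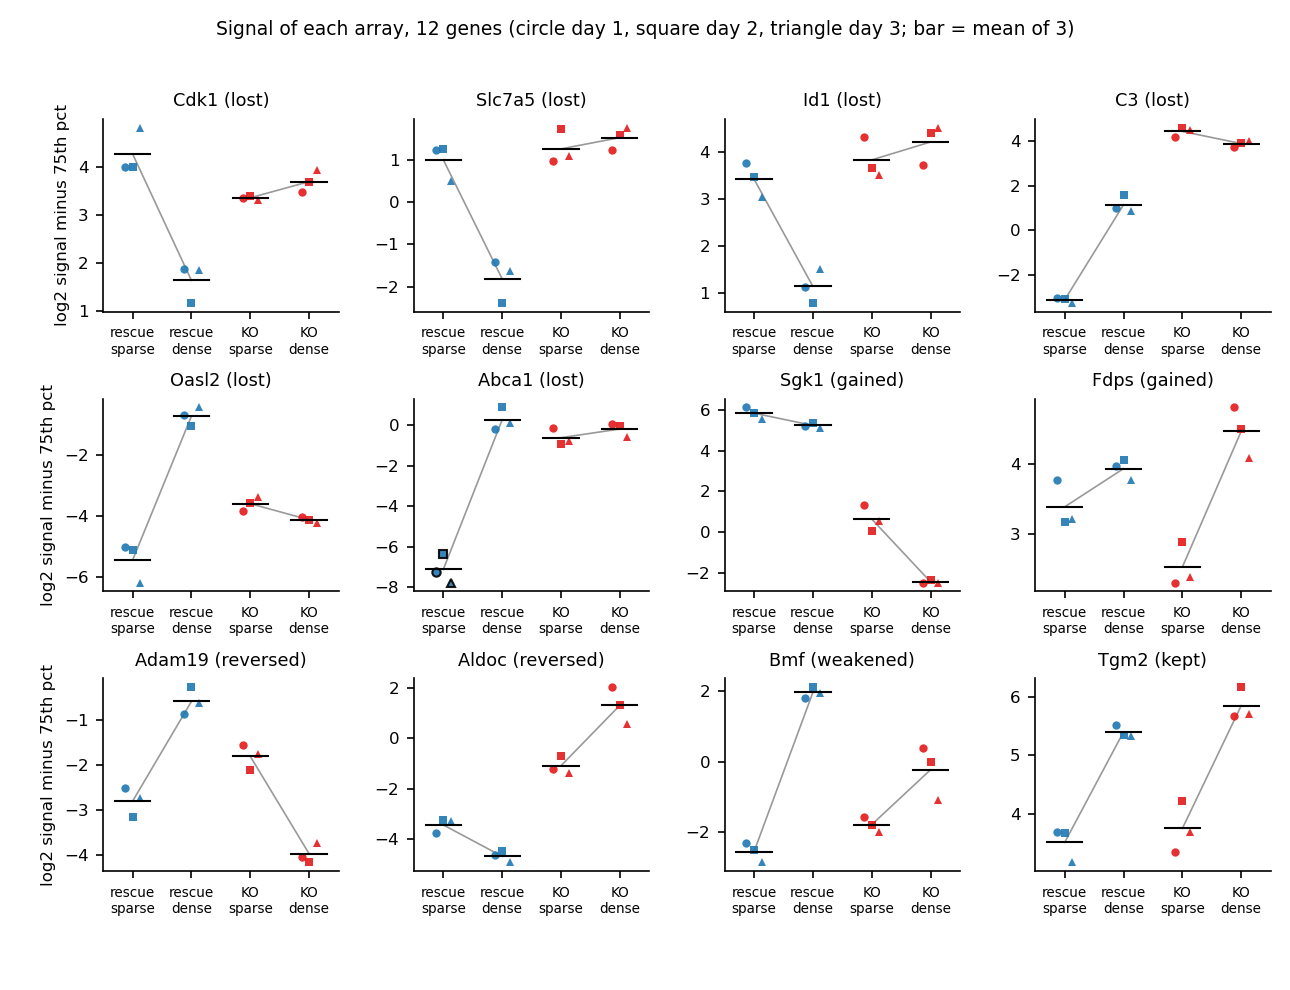
Log2 signal minus the 75th percentile of the array for 12 genes on each of 12 arrays, rescue in blue and KO in red, with bars for group means, grey lines from sparse to dense, and symbols for the day (circle 1, square 2, triangle 3); black outlines mark a group with no array well above background. Lost genes have a slope in rescue cells only, with KO values near the sparse level (Slc7a5, Id1), near the dense level (Abca1) or beyond both (C3), and Tgm2 has the same slope in both lines.

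Immediate early genes, which answer growth factors within minutes, were split. Of 27 tested, 5 differed downwards and 2 upwards, 25.9% against the 20.7% of all genes, and the median was 0.03. Egr1, a transcription factor of this class, was at 0.53, 1.40 and 0.10 in rescue sparse and 2.75, 3.0 and 3.12 in rescue dense cells, and at 0.67, 0.79 and 1.12 in KO sparse and -0.26, 0.44 and -0.0048 in KO dense cells. Its difference was -3.08 ± 0.43, and those of Egr2 and Fos were -3.43 ± 0.44 and -2.08 ± 0.39 (0.27 for Fos with spike-in scaling). In this list 12 genes fell in rescue cells and 12 in KO cells, against 21% and 5.47% of all genes. Kept were 4 falls, that of Phlda1 among them, against 0.86% of all genes.

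Gained responses, found in KO cells alone, were 121 rises (0.973% of all genes) and 127 falls (1.02%). Leaving out KO dense array 2, KO sparse array 1 or KO sparse array 3 reduced the 248 genes to 119, 132 and 142. Without day 1 no gene met the rule of this class, although 1200 differences were still called. Cholesterol genes were the list with most gained rises. Of 26 tested, 13 rose in KO and 3 in rescue cells, against 5.44% and 19% of all genes. The difference was called in 8 with the KO change higher (30.8%, against 11.3% of all genes). Of these 8, 6 were gained, and the median difference of the list was 0.78. Fdps, which makes farnesyl pyrophosphate, was at 3.78, 3.17 and 3.21 in rescue sparse and 3.97, 4.06 and 3.76 in rescue dense cells, and at 2.30, 2.88 and 2.38 in KO sparse and 4.81, 4.51 and 4.09 in KO dense cells. The KO groups are apart, whereas the rescue groups overlap. The difference was 1.40 ± 0.35 (adjusted p = 0.0147, limma), and that of Sqle, squalene epoxidase, was 1.27 ± 0.28. Neither call was stable. That on Fdps was lost with normexp correction (1.12) and without day 1, 2 or 3 (0.94, 1.73 and 1.53), and that on Sqle with normexp correction (1.34) and without day 1 or 2 (1.2 and 1.15). Sqle was named after its values were seen.

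Among other gained rises, Eln (elastin), the core of elastic fibres, was at -3.64, -2.86 and -3.49 in KO sparse and -0.15, -0.16 and -0.34 in KO dense cells. In rescue cells it was near background, on 2 of 3 sparse and 1 of 3 dense arrays above it. The rise was 8.68-fold in KO cells and the difference 3.82 ± 0.69. Ackr3, a scavenging chemokine receptor, differed by 2.31 ± 0.48, Bcar3, an adaptor that binds the FAK substrate p130Cas, by 1.94 ± 0.40, and Pdk1, a kinase that closes the entry of pyruvate to the mitochondrion, by 1.75 ± 0.35. Parvb (beta-parvin), which links integrins to actin, differed by 2.57 ± 0.62. Normexp correction ended the calls of Ackr3 (1.1), Bcar3 (1.64), Pdk1 (1.12) and Parvb (0.55). Leaving out day 1 ended those of Bcar3 (1.72), Pdk1 (1.48) and Parvb (1.82). Without day 2 the calls of Ackr3 (1.80), Bcar3 (1.745) and Pdk1 (1.76) were lost, and without day 3 that of Parvb (2.75). Over 40 tested genes of integrins and focal adhesions, 4 differed upwards and 4 downwards, 20% against the 20.7% of all genes, and the median was 0.11. In this list 5 responses were gained and 1 was lost, against 1.99% and 15.6% of all genes. Ptk2b (PYK2), the relative of FAK, changed by 0.62 ± 0.32 in rescue cells and by 1.01 ± 0.32 in KO cells, with a difference of 0.39 ± 0.45, and for Ptk2 the difference was 0.04 ± 0.25. Neither was called (adjusted p = 0.567 and 0.929, limma).

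Gained falls were led by Mt1 and Sgk1. Mt1, a metallothionein that binds zinc and copper, was at 5.12, 5.31 and 4.85 in rescue sparse and 5.18, 6.10 and 4.76 in rescue dense cells. It went from 3.55, 3.85 and 3.77 in KO sparse to 1.84, 0.81 and 1.37 in KO dense cells (difference -2.64 ± 0.47). Sgk1, a kinase downstream of PI3 kinase, was at 6.15, 5.87 and 5.57 in rescue sparse and 5.24, 5.39 and 5.14 in rescue dense cells, and fell from 1.33, 0.02 and 0.56 to -2.50, -2.38 and -2.50 in KO cells. The fall was 8.56-fold in KO cells and the difference -2.49 ± 0.40 (adjusted p = 0.0014, limma). With spike-in scaling neither difference was called, at -0.29 for Mt1 and -0.15 for Sgk1, and that of Sgk1 was not called after normexp correction (-1.73).

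Reversed responses were 69 that rose in rescue and fell in KO cells and 49 of the opposite kind. The count was 37 without KO dense array 2, 45 without KO sparse array 1, 56 without KO sparse array 3, and 74 to 78 without KO dense array 3, rescue dense array 1 or KO dense array 1. Adam19, a sheddase of growth factors, was at -2.52, -3.15 and -2.74 in rescue sparse, -0.87, -0.27 and -0.62 in rescue dense, -1.55, -2.11 and -1.76 in KO sparse and -4.03, -4.16 and -3.72 in KO dense cells. It rose 4.64-fold in rescue cells and fell 4.48-fold in KO cells, with no overlap in either line (difference -4.38 ± 0.33, adjusted p = 3.1e-05, limma). On its second probe the rise was 2.96 and the KO change of -0.59 was not called (difference -3.55), so by that probe the response was lost rather than reversed. Fn1 (fibronectin), the matrix ligand of the integrins that recruit FAK, rose by 1.5 ± 0.18 in rescue cells and fell by 0.88 in KO cells (difference -2.38 ± 0.25). It was named after its values were seen. Further reversed rises were those of Tcim (difference -4.65 ± 0.45), Prkg1, the kinase that answers cyclic GMP (-3.34 ± 0.26), Casp4, an inflammatory caspase (-3.22 ± 0.33), Rgs2, a brake on G protein signals (-3.06 ± 0.29), Cxcl10, an interferon-induced chemokine (-2.99 ± 0.48), and Pmaip1 (NOXA), a death-promoting protein (-2.62 ± 0.26). On the second probe of Rgs2 the KO change of -0.25 was not called (difference -2.67). Of the rises named here as reversed, those of Fn1, Prkg1, Casp4, Rgs2, Cxcl10 and Pmaip1 had no called difference with spike-in scaling (-0.04, -0.99, -0.87, -0.71, -0.64 and -0.27).

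In the opposite direction, Aldoc, an aldolase of glycolysis, was at -3.76, -3.26 and -3.30 in rescue sparse, -4.64, -4.49 and -4.93 in rescue dense, -1.21, -0.68 and -1.37 in KO sparse and 2.04, 1.32 and 0.59 in KO dense cells. It fell 2.37-fold in rescue cells and rose 5.28-fold in KO cells. Over 32 tested genes of glycolysis and hypoxia, 4 differed upwards and 1 downwards, 15.6% against 20.7%, so this list did not stand out. Krt14, a keratin of basal epithelium, differed by 3.58 ± 0.43. Of 12 epithelial markers, Krt14 included, 4 were above background on all 3 arrays in each KO group, and 6 were well above it on no KO dense array, the defining Epcam and Cdh1 among them. The summed signal of the other 11 was 1.76 to 2.60 times the 75th percentile in KO sparse and 1.85 to 2.29 times in KO dense arrays, against 0.256 to 0.330 and 0.189 to 0.239 in rescue sparse and dense arrays. The part of other cells in the Krt14 value was not tested. Alcam, a cell adhesion protein, differed by 2.92 ± 0.39, and Kif15, a spindle motor, by 2.60 ± 0.39. On the second probe of Kif15 neither the KO change (-0.67) nor the difference (1.70) was called.

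**Figure D4:**
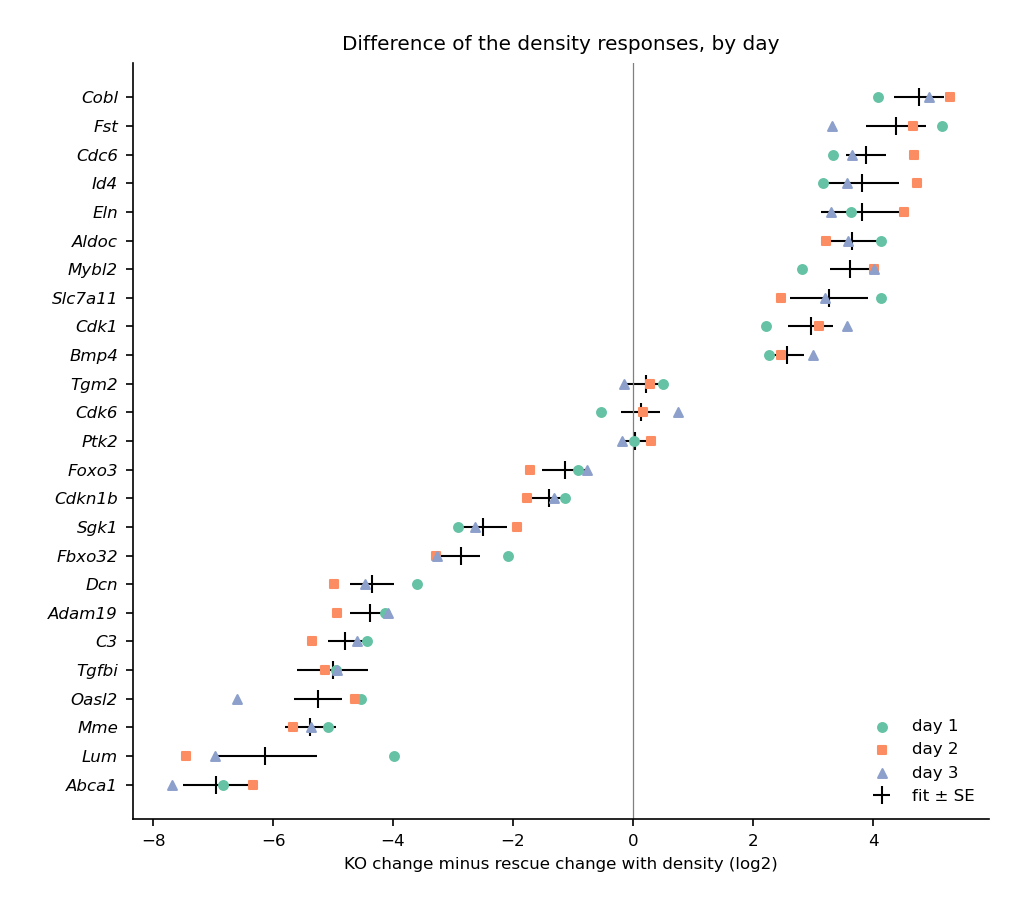
Difference of the density responses (KO change minus rescue change, log2) on each day (symbols) and from the fit (vertical tick with a bar of 1 SE) for 25 genes. In the 22 genes other than Ptk2, Tgm2 and Cdk6, all 3 days lie on 1 side of 0, and day 2, when all 4 cultures shared a slide, lies among or beside the other days.

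Weakened responses kept their direction in KO cells at a smaller size, 49 rises with medians of 2.54 in rescue and 1.02 in KO cells, and 44 falls with medians of -2.27 and -0.89. Bmf, a death-promoting protein released on detachment, was at -2.29, -2.51 and -2.85 in rescue sparse and 1.81, 2.11 and 1.95 in rescue dense cells. It was at -1.56, -1.80 and -1.98 in KO sparse and 0.39, -0.0027 and -1.07 in KO dense cells. Sparse and dense values are apart in both lines, and all KO dense values lie below the rescue dense values. The rises were 22.8-fold and 2.94-fold, and the difference was not called with spike-in scaling (-0.61) or on the other 2 probes of Bmf (-0.93 and -2.13). Other weakened responses were those of Ypel3 (difference -2.61 ± 0.28, or -0.27 and not called with spike-in scaling), Tcn2, which carries cobalamin (-2.62 ± 0.28, or -0.27 and not called), Lbp and Il18, both of innate immunity (-2.02 ± 0.36 and -2.01 ± 0.26, or 0.33 and 0.34 with spike-in scaling), and Rnd1, a small GTPase that rounds cells up (2.77 ± 0.40). The count of 93 fell to 17 without KO dense array 2, 29 without KO sparse array 1 and 31 without KO sparse array 3, to 40 without KO sparse array 2, and to 52 to 58 without KO dense array 1, KO dense array 3 or rescue dense array 1.

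Strengthened were 4 falls. Fam13c went from 0.64, 0.58 and 0.29 to -1.31, -0.56 and -1.27 in rescue cells and from 1.57, 1.1 and 1.68 to -2.44, -1.73 and -2.01 in KO cells (difference -1.96 ± 0.37). Its other probe rose by 1.79 in rescue and 1.24 in KO cells, both called, with a difference of -0.54 that was not, so the probes of Fam13c disagree on the direction of both changes. Il6, the cytokine interleukin 6, differed by -1.63 ± 0.40, was well above background on 1 of 3 KO dense arrays, and was named after its values were seen. The differences of Mcu, the calcium uniporter of mitochondria, and Ern1 (IRE1), a sensor of the unfolded protein response, were -0.89 ± 0.27 and -0.76 ± 0.25. The call on Ern1 was lost without any 1 of 10 arrays (-0.63 to -0.79) and held only without rescue sparse array 3 or KO dense array 3, and that on Mcu was lost without any 1 of 8 (-0.73 to -0.94). The count was 7 with day as a replicate block and 2 to 13 when single arrays were left out, and all 4 differences turn positive with spike-in scaling.

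Kept responses, of which spike-in scaling left 0, were 125 rises with medians of 0.90 in rescue and 0.86 in KO cells and 107 falls with medians of -0.96 and -0.90. Tgm2, the transglutaminase that crosslinks matrix, was at 3.69, 3.67 and 3.16 in rescue sparse and 5.53, 5.35 and 5.34 in rescue dense cells, and at 3.34, 4.21 and 3.69 in KO sparse and 5.68, 6.17 and 5.71 in KO dense cells. It rose 3.72-fold and 4.31-fold, and the 95% interval of the difference was -0.54 to 0.96. Cygb (cytoglobin), an oxygen-binding protein, rose by 2.05 ± 0.27 and 2.19 ± 0.27, and Nrep by 1.88 ± 0.26 and 1.74 ± 0.26. Cdk6, a kinase of early G1, is a cell cycle gene whose fall was kept at this scaling. It was at -0.56, -0.32 and 0.05 in rescue sparse and -2.09, -2.10 and -2.44 in rescue dense cells, and at 0.07, -0.07 and 0.42 in KO sparse and -2.0, -1.68 and -1.32 in KO dense cells. Sparse and dense values are apart in both lines, and the difference had an interval of -0.59 to 0.84. On the other probe of Cdk6 the fall of 1.29 in rescue cells was called and the KO change of -0.66 was not. With spike-in scaling a difference was called for each kept gene named: 2.48 for Cdk6, 2.56 for Tgm2, 2.49 for Cygb, 2.21 for Nrep, 2.17 for Cd44, 2.44 for Tead4 and 2.46 for Phlda1.

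Cd44, the receptor for hyaluronan, fell by 1.80 in rescue and 1.98 in KO cells, and Tead4, a DNA-binding partner of YAP, by 1.48 and 1.39. YAP is held out of the nucleus in crowded cells. Of 27 tested YAP and TEAD targets, 15 fell in rescue and 9 in KO cells, against 21% and 5.47% of all genes. The median changes were -0.82 and -0.63. Of the 27, 5 differed upwards and 3 downwards, 29.6% against the 20.7% of all genes. Edn1 (endothelin-1) was lost from this list, with a fall of 3.36 in rescue cells and a difference of 2.73 ± 0.32. For Ccn2 (CTGF), a much used target, falls of 3.19 in rescue and 1.76 in KO cells were called and the difference of 1.44 ± 0.48 was not (adjusted p = 0.0561, limma). It was named after its values were seen, and without KO sparse array 3 or KO dense array 1 its difference was 1.66 or 1.79 and was called. It was also called with slide as a fixed block, with the line and day pair as a random block, among only the probes above background on all arrays, after normexp correction (1.56), and with median (1.69) or spike-in (3.78) scaling. Of 27 tested genes of SRF and actomyosin, 12 fell in rescue and 7 in KO cells, against the same 21% and 5.47%. The median changes were -0.72 and -0.74. In this list 3 differed upwards and 3 downwards (22.2%). The median difference was -0.06, or 0.19 with median and 2.29 with spike-in scaling. The count of 232 kept genes was 66 without KO dense array 2, 87 and 88 without KO sparse arrays 1 and 3, and 126 to 146 without KO sparse array 2, KO dense array 1 or rescue dense array 1.

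The remaining lists are given with the share of members called, against 20.7% of all genes. Of 21 chemokines and cytokines 7 differed downwards and 2 upwards (42.9%), with a median of -0.56, or 1.79 with spike-in scaling. This share is above the background, but 2 of the 21 passed the filter through the rescue dense group alone. Of the 14 with no undetected group 5 differed downwards and 2 upwards. Csf1, the growth factor of macrophages, was a lost fall with a difference of 2.09 ± 0.21. Of 31 genes of sphingolipid metabolism 4 differed downwards and 2 upwards (19.4%). Their median difference was -0.22, or 0.03 with median and 2.13 with spike-in scaling. Smpd3, a sphingomyelinase of this list, differed by 3.30 ± 0.28 and was well above background on 1 of 3 rescue dense arrays. Of 27 genes of cadherins and junctions 6 differed upwards and 1 downwards (25.9%), of 23 Wnt genes 4 and 3 (30.4%), and of 11 genes of caveolae 2 and 0 (18.2%). In the junction list 1 gene passed the filter through the rescue dense group alone. Of its 22 with no undetected group 6 differed upwards and 0 downwards. In the Wnt list 1 gene passed through the rescue dense group alone and 1 through a KO group alone, which fixes their direction. Of its 17 with no undetected group 4 differed upwards and 1 downwards. Cobl, an actin nucleator, had the largest lost fall in which 1 group was not well above background among the genes named. It fell at least 14.7-fold in rescue cells and changed by 0.35 ± 0.29 in KO cells.

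**Figure D5:**
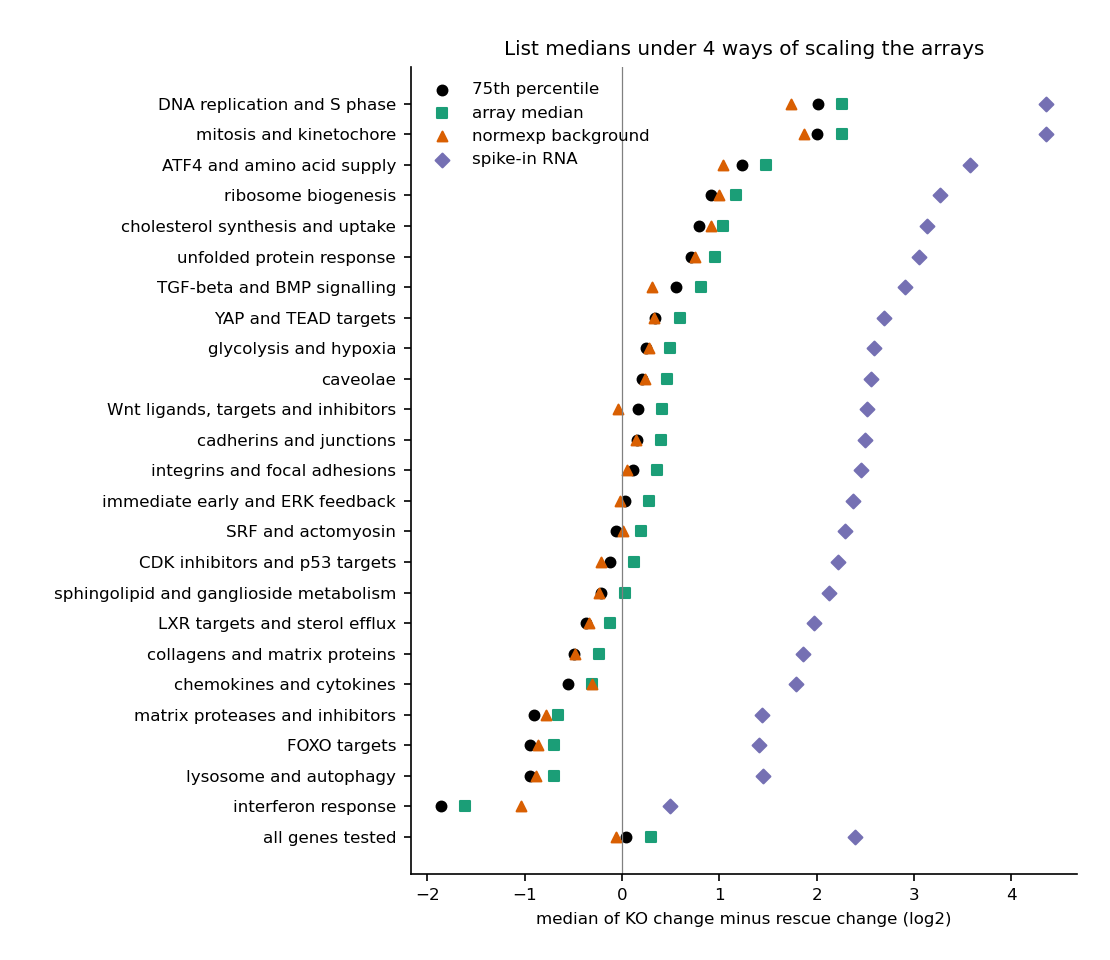
Median difference of the density responses (log2) over 24 gene lists and over all genes tested, with arrays scaled to the 75th percentile (circles), to the array median (squares), after normexp background correction (triangles) and to the spike-in RNA (diamonds). Median and spike-in scaling shift every list by the same amount and so cannot change the order of the lists, which changes little after normexp correction. The spike-in scaling moves all genes from 0.04 to 2.39 and puts every list above 0.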

How the data were processed

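The deposited scanner files hold 1-colour Agilent intensities, background-subtracted as processed signals by Feature Extraction 10.5.1.1 per the file headers. Log2 processed signals were scaled here to each array's 75th percentile; flagged and control spots were left out. Of 41174 probes, 24375 had a name that matched a RefSeq transcript with 1 gene symbol, and 16799 did not. A probe had to be well above background on every array of 1 or more groups, and the probe with the highest mean stood for its gene (12435 genes). limma 3.58.1 (R 4.3.3) fitted 4 group means; the 3 contrasts share arrays, so their calls are not independent. The fit was tested on simulated data. A group with no array well above background gives a bound ("at least"), set per array at the lowest signal among probes well above background, or the probe's own if higher. The authors' deposited value table holds log2 values whose centring is not stated (column medians 8.38 to 8.39); it served as an alternative.

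Replicate numbers mark experimental days, per the labels, and so pair samples; deviations of same-day arrays correlated at -0.0384 to 0.292, over 0.1 in 11 of 18 pairs. The files used hold no mean signal column, so normexp used median signals (offset 50). Named genes are Ptk2, Ptk2b, Abca1 and Foxo3, up to 6 genes with the largest called differences per class and direction (kept: the largest smaller change) among probes well above background on all arrays, up to 3 per list with 1 of opposite sign, and up to 4 per direction with an undetected group; exceptions are stated in the text. Members and lists were chosen with earlier results of these data known. Alternatives were other scalings, background correction, filters, probe rules, blocks, thresholds and left-out arrays or days.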

Additional observations from a re-analysis of the deposited data

Results flagged for a closer look

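The density responses differed between the lines by the test of the difference itself in 2579 genes, among them 1943 lost, 248 gained, 118 reversed, 93 weakened and 4 strengthened. Of the reversed genes, the rescue line rose and the KO line fell for Tcim (difference -4.65), Adam19 (-4.38), Prkg1 (-3.34), Casp4 (-3.22), Rgs2 (-3.06), Cxcl10 (-2.99) and Pmaip1 (-2.62). The rescue line fell and the KO line rose for Fst (4.38), Aldoc (3.65), Krt14 (3.58), Alcam (2.92), Kif15 (2.60), Apoe (2.55) and Rbl1 (2.10). In the deposited value table, which the comparisons do not use, 4 columns of day 3 were closest to the array of the other line.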

How the results depend on the processing

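Day as a replicate block changed no call on the 100 genes named, and 2520 of the 2579 called genes remained called with the same sign; strengthened genes became 7. For called genes and their split, in the order called, higher, lower, lost, gained, reversed, weakened, strengthened and kept, the counts of 2579, 1402, 1177, 1943, 248, 118, 93, 4 and 232 became the following. With normexp they were 592, 371, 221, 546, 13, 3, 0, 0 and 4, with 2306 genes at an unadjusted p under 0.05, and 2547 of the 2579 kept their sign. With spike-in scaling they were 10756, 10706, 50, 10, 8685, 313, 47, 1695 and 0, and 1665 kept their sign. The deposited value table gave 0 in limma for each, with 41 of 13059 genes at an unadjusted p under 0.05. Without day 3, a setting added after seeing the data, as are the other left-out days, it gave 1353, 784, 569, 1050, 157, 37, 30, 2 and 139. Scanner files without day 1 gave 1200, 627, 573, 1068 and then 0 for each other class, without day 2 920, 538, 382, 741, 60, 20, 2, 1 and 10, and without day 3 1214, 631, 583, 960, 119, 36, 27, 2 and 91. A threshold of 0.01 gave 1202, 654, 548, 1015, 77, 16, 11, 1 and 57. The line and day pair as a random block gave 205 reversed, 155 weakened and 391 kept genes, and slide as a fixed block 14 strengthened. Quantile scaling gave 7 strengthened, and median scaling 696 lower and 2 strengthened. With no filter on dim probes 61 were reversed, 42 weakened, 2 strengthened and 146 kept, and the mean of all kept probes gave 366 kept. Single left-out arrays gave 1967 to 2572 called, 1043 to 1357 higher, 874 to 1220 lower, 1513 to 2060 lost, 119 to 286 gained, 37 to 130 reversed, 17 to 95 weakened, 2 to 13 strengthened and 66 to 259 kept. The cause was not tested.

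Spike-in scaling turned the differences of 14 of the 100 genes positive: Lipa to 0.11, Gaa to 0.38, Fos to 0.27, Lbp to 0.33, Il18 to 0.34, Fam13c to 0.39, Ern1 to 1.59, Mcu to 1.46, Cdkn1b to 0.94, Cdkn2a to 0.93, Cdkn2b to 1.11, Il6 to 0.72, Nupr1 to 1.41 and Npc1 to 1.15. A further 17 kept their sign and lost their call with it: Bmf -0.61, Casp4 -0.87, Cxcl10 -0.64, Egr1 -0.73, Egr2 -1.09, Fbxo32 -0.53, Fn1 -0.04, Gpnmb -0.64, Mt1 -0.29, Pdgfra -1.28, Pik3ip1 -0.67, Pmaip1 -0.27, Prkg1 -0.99, Rgs2 -0.71, Sgk1 -0.15, Tcn2 -0.27 and Ypel3 -0.27; 10 gained a call. No other setting run turned the sign of a named gene's call, but calls were lost: 31 with normexp, 15, 20 and 11 without day 1, 2 or 3, 5 with median scaling, and 89 in the deposited value table, or 12 without its day 3. Normexp ended the calls of the 10 genes listed in the report with a group not well above background. It also ended those of Ackr3, Bambi, Bcar3, Cdkn1b, Cdkn2b, Cxcl10, Egr2, Ern1, Fam13c and Fdps. The other calls it ended were those of Fos, Gpnmb, Id3, Il6, Mcu, Nupr1, Parvb, Pdk1, Sgk1, Smpd3 and Sqle. Signal over background limits 378 of the called genes, which had at least 1 group with no array well above background.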
